A study of Mus musculus with 4 samples.

Results

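The adenylate kinase family was examined in the mouse retina at embryonic day 19. Its members were the genes whose symbol was Ak1, Ak3, Ak4, Ak5, Ak6, Ak7, Ak8 or Ak9, and all 8 were among the 18471 genes read from the deposited table and passed the low-count filter. Bulk RNA sequencing was done on 2 wild-type embryos and 2 embryos homozygous for the Foxn3 allele C57BL/6NJ-Foxn3em1(IMPC)Bay/Mmnc, in which exon 3 is deleted. These groups are labelled wild-type and Foxn3KO. The allele is constitutive, each library came from the retina of 1 genotyped embryo, and no other allele or treatment is named.

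Adenylate kinases move a phosphate between adenine nucleotides, turning ATP and AMP into ADP and back. They keep adenylate pools balanced in different cell compartments, and AMP made in this way is read by the AMP-activated protein kinase. Ak1 is the main cytosolic enzyme, Ak3 and Ak4 are mitochondrial matrix enzymes, Ak5 is known from brain, and Ak6 is a nuclear enzyme linked to ribosome assembly. Ak7, Ak8 and Ak9 are linked to motile cilia and sperm flagella, in which dynein motors consume ATP along the axoneme. Retinal neurons and progenitors normally carry primary cilia, which do not beat.

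Total counts ranged from 22543531 to 29360129 per library. The targeted gene Foxn3 had 97.6 and 99.8 CPM (counts scaled to library size) in the wild-type-labelled retinas and 143.6 and 143.7 CPM in the Foxn3KO-labelled retinas, so it was higher in the knockout group and gene counts do not resolve exon 3. Every direction below therefore rests on the labels. Wild-type replicate 1 differed from the other libraries in sex-linked transcripts, with 83073 Xist counts against 9 to 19 and 0 Ddx3y counts against 1780 to 2317. All 13 retinal marker genes examined were present, with a summed level of 3575 to 3770 CPM per library. By the test described below, 4 of them were called higher (Six3, Six6, Sox2 and Elavl4) and 1 lower (Isl1). Of all tested genes, 12.3% were called higher and 9.66% lower. The median log2 fold change of the 13 was 0.06. The labels make each library a separate embryo, so p-values refer to the spread between embryos, with 2 per group. The test estimates that spread partly from the other tested genes, so a small p-value does not rest on a gene's own embryos alone.

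Of the 8 members, 4 were higher in the Foxn3KO-labelled retinas and none was lower. They were Ak7, Ak9, Ak8 and Ak1, by edgeR's quasi-likelihood test with Benjamini-Hochberg adjustment at 0.05 over all tested genes. Of the 17300 genes tested, 21.9% were called, 12.3% as higher and 9.66% as lower. The 3 cilia-linked members had a median log2 fold change of 5.04 and were all called. Among these 3, Ak9 passed the low-count filter only through the Foxn3KO-labelled libraries, the group where it is high. Of the other 5 members, Ak1 was called, and their median was -0.05, against -0.0047 over all tested genes. In bulk tissue, more cells that express a gene and more RNA per cell cannot be told apart.

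**Figure D1:**
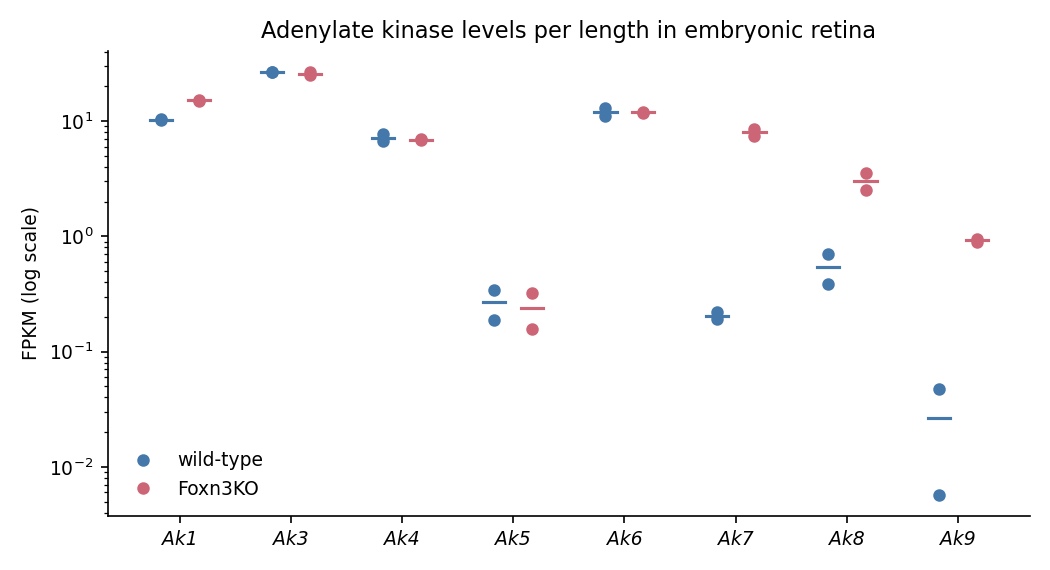
Level of each adenylate kinase per length, in FPKM (fragments scaled by gene length and library size) on a log axis, in the 4 libraries; points are libraries and short lines are means of 2. Ak7, Ak8 and Ak9 lie higher in the Foxn3KO-labelled retinas with no overlap, Ak1 is higher by a smaller step, and the points of Ak3, Ak4, Ak5 and Ak6 overlap between the groups.

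Ak7 (ENSMUSG00000041323), an adenylate kinase of motile cilia whose loss causes defects of ciliary beating, went from near the bottom of the family to just above Ak4 in level per length. It had 23 and 22 counts in the wild-type-labelled retinas and 1043 and 705 in the Foxn3KO-labelled retinas. The level was 0.927 and 0.810 CPM against 35.8 and 31.5 CPM. The wild-type values lay close together, and the groups were far apart. The log2 fold change was 5.27 (SE 0.14, edgeR adjusted p = 4.53e-15), a 38.7-fold rise. Only 17 of the 17300 tested genes had a larger log2 fold change. Pooled counts gave a ratio of 39.2 with an exact 95% counting interval of 29.2 to 53.9, which covers counting error only.

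Ak7 lies on chromosome 12, as does Foxn3. Between the 2 genes in the GENCODE annotation lie 58 tested genes, of which 14 were called (24.1%, against 21.9% of all). Of the 58, 11 were called higher, where 12.3% of all tested genes were higher and 9.66% lower. The median log2 fold change of the 58 genes was 0.007.

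Ak9 (ENSMUSG00000091415) encodes a large adenylate kinase with several kinase domains that is found in sperm flagella. It had 1 and 9 counts in the wild-type-labelled retinas and 194 and 140 in the Foxn3KO-labelled retinas, or 0.0403 and 0.331 CPM against 6.66 and 6.25 CPM. The transcript was close to the detection limit in the wild-type-labelled retinas, where 3 counts equal 0.121 and 0.110 CPM, and it was clearly present in the others. The log2 fold change was 5.04 (SE 0.35, edgeR adjusted p = 4.91e-09). Ak9 passed the low-count filter only through its counts in the Foxn3KO-labelled retinas, so its call is not independent of that filter. With no low-count filter the log2 fold change was also 5.04. Its size depends on 10 wild-type counts: leaving out wild-type replicate 1 gave 4.27 and leaving out wild-type replicate 2 gave 7.16. Pooled counts gave a ratio of 33.7 (exact 95% counting interval 18.1 to 70.9), and against wild-type replicate 1 alone, with its single count, the interval ran from 28.7 to 6369.

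Ak8 (ENSMUSG00000026807), an axonemal adenylate kinase, was also higher, with a smaller fold change than Ak7 and Ak9. It had 18 and 36 counts in the wild-type-labelled retinas and 139 and 149 in the Foxn3KO-labelled retinas, or 0.726 and 1.33 CPM against 4.77 and 6.65 CPM. The 4 values spread more widely relative to their group means than those of Ak7, and the groups did not overlap. The log2 fold change was 2.44 (SE 0.27, edgeR adjusted p = 1.97e-06), and 145 tested genes had a larger one. The pooled ratio was 5.38 (exact 95% counting interval 4.01 to 7.33). No test of the difference between the members was made.

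Ak1 (ENSMUSG00000026817), the cytosolic enzyme abundant in muscle and brain, was the called member outside the cilia-linked set. It had 26.9 and 26.5 CPM in the wild-type-labelled retinas and 38.7 and 39.9 CPM in the Foxn3KO-labelled retinas. Replicates lay close together and the groups did not overlap. The log2 fold change was 0.56 (SE 0.067, edgeR adjusted p = 6.54e-06), a 1.47-fold rise from a well-expressed baseline. A larger log2 fold change was found for 1313 tested genes. Of 12 muscle markers read beside Ak1, 7 were in the table, with a summed level of 9.89 to 12.9 CPM. Of the 6 tested, 0 were called higher and 1, Des, was called lower, where 12.3% of all tested genes were higher and 9.66% lower.

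The other 4 members did not pass. Ak3 (ENSMUSG00000024782), the mitochondrial enzyme that uses GTP, was the most abundant member and had 83.6 and 83.0 CPM in the wild-type-labelled retinas against 78.1 and 83.1 CPM. Its log2 fold change was -0.05 (SE 0.052, edgeR adjusted p = 0.559). Ak4 (ENSMUSG00000028527), its mitochondrial paralog that is induced by low oxygen, had 36.0 and 31.0 CPM against 32.0 and 32.3 CPM, with a log2 fold change of -0.06 (SE 0.076, edgeR adjusted p = 0.635). For both genes the values of the groups overlapped.

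Ak6 (ENSMUSG00000078941) had 35.9 and 30.7 CPM in the wild-type-labelled retinas and 32.5 and 33.5 CPM in the Foxn3KO-labelled retinas, a log2 fold change of -0.01 (SE 0.077, edgeR adjusted p = 0.933). Its value is uncertain because it shares 1564 exon bases (56.5% of its own) with Taf9, a subunit of the general transcription factor complex TFIID, on the same strand. Taf9 had 20 to 45 counts per library and a log2 fold change of -0.96 (edgeR adjusted p = 0.0454). In the authors' deposited table its adjusted p was 0.209, and how the counting split shared reads is not given in the sources used here. Ak3 shares 430 exon bases with Cdc37l1 on the opposite strand; Cdc37l1 had a log2 fold change of -0.32 (edgeR adjusted p = 0.000124), and the strand setting of the counting is likewise not given. Ak1, Ak4, Ak7, Ak8 and Ak9 share no exon base with another annotated gene.

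Ak5 (ENSMUSG00000039058) was barely expressed, with 16 and 32 counts in the wild-type-labelled retinas and 32 and 12 in the Foxn3KO-labelled retinas. High and low values occurred in both groups. The log2 fold change was -0.12 (SE 0.42, edgeR adjusted p = 0.882).

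**Figure D2:**
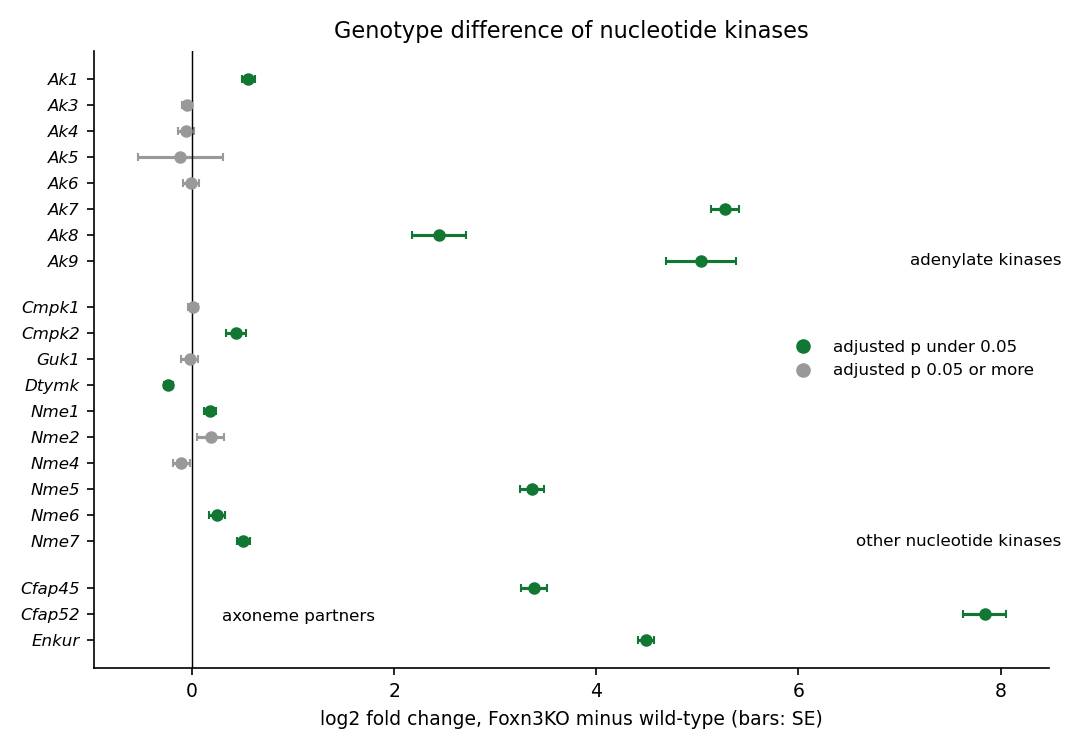
Log2 fold change (Foxn3KO minus wild-type) with its SE for the 8 adenylate kinases, 10 other nucleotide kinases and 3 axonemal partner proteins; green points passed an adjusted p of 0.05. Ak7, Ak8, Ak9, Nme5, Cfap45, Cfap52 and Enkur stand at 2.44 to 7.84, and the other genes lie between -0.23 and 0.56.

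Levels of different members were compared per length, with the FPKM deposited by the authors. In the libraries labelled wild-type the order was Ak3 (26.6 FPKM), Ak6 (11.98), Ak1 (10.3), Ak4 (7.19), Ak8 (0.545), Ak5 (0.267), Ak7 (0.205) and Ak9 (0.0266). Ak5 and Ak7 were the only neighbours in that order whose replicate ranges overlapped. In the libraries labelled Foxn3KO it was Ak3 (25.7 FPKM), Ak1 (15.1), Ak6 (11.9), Ak7 (7.97), Ak4 (6.90), Ak8 (3.04), Ak9 (0.924) and Ak5 (0.239), with no overlap between neighbours.

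The family's summed level was 58.4 and 55.7 FPKM in the wild-type-labelled retinas and 70.7 and 72.96 FPKM in the Foxn3KO-labelled retinas. The cilia-linked members went from 0.611 and 0.945 FPKM in sum to 11.98 and 11.9 FPKM. The other 5 members summed to 57.8 and 54.8 FPKM against 58.7 and 61.1 FPKM. Ak7, Ak8 and Ak9 thus held 1.37% ± 0.458 (SD, n = 2) of the family's FPKM in the wild-type-labelled retinas and 16.6% ± 0.452 (SD, n = 2) in the Foxn3KO-labelled retinas. Ak7 alone held 11.1% ± 1.26 (SD, n = 2) in the latter, while the share of Ak3 went from 46.6% ± 1.37 to 35.8% ± 0.781 (SD, n = 2 each) with no called change of its own. These shares describe 2 libraries a group and were not tested.

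**Figure D3:**
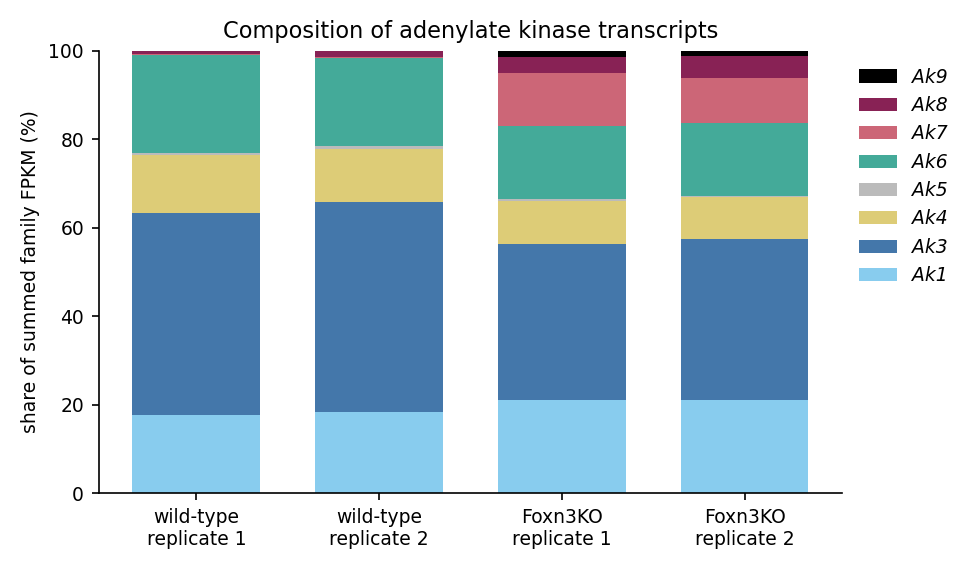
Share of the summed family FPKM held by each adenylate kinase in the 4 libraries, as stacked bars in percent. Ak7, Ak8 and Ak9 at the top take 1.05% and 1.69% in the wild-type-labelled retinas and 16.9% and 16.3% in the Foxn3KO-labelled retinas.

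Sequence near the start sites was examined because 3 members moved together. Windows of 250 bases before to 50 after each annotated start came from RefSeq (build GRCm38.p6), and 7 of the 8 members matched, with 13 windows; Ak5 did not match. Motifs, chosen with the results known, were searched on both strands. GTTGCC is 1 arm of the X-box bound by RFX factors, GTNNCCNNGGNNAC is a form with both arms and can hold the first, GTAAACA is a forkhead site, and GACGC is a core bound by some FOXN factors. They occur in 12.5%, 1.88%, 3.65% and 27.2% of 32851 windows. A match is a description of letters and not a binding site.

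The 160 bases from 150 before to the first 10 of the transcript are shown for the called members, read 5′ to 3′, with matches in capitals. For Ak7 they mark the reverse complements of GTAAACA and GACGC, for Ak9 the full-length X-box form across the start, for Ak8 a GACGC match on each strand, and for Ak1, at 1 of its 4 annotated starts, 3 copies of the X-box arm.
Ak7, chr12:105705832-105705991, plus strand: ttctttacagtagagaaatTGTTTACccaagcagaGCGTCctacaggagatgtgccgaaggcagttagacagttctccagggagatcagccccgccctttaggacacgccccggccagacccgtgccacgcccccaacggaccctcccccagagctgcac
Ak9, chr10:41303784-41303943, plus strand: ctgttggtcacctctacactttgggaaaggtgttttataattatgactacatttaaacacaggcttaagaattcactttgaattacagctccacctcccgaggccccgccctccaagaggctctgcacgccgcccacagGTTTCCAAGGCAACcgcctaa
Ak8, chr2:28700011-28700170, plus strand: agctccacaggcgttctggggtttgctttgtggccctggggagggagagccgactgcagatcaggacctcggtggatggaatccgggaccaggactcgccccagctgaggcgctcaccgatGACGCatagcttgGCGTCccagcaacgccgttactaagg
Ak1, chr2:32629350-32629509, plus strand: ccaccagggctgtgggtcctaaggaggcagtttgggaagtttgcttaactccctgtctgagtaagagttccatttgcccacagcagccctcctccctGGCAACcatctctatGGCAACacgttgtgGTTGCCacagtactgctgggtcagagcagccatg

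Ak9 was the member with the full-length X-box form, in 1 of 13 windows, and Ak7 the one with the forkhead letters, also in 1 of 13. The forkhead match of Ak7 begins 131 bases and its GACGC match 115 bases before the start. In Ak1 the X-box arms begin 53, 38 and 24 bases before the start, and another of its starts has 2 more. Ak8 has neither the exact letters GTTGCC nor the forkhead letters in its window, and looser forms of a single X-box arm were not searched. GACGC occurred in 8 of the 13 windows, among them windows of Ak3, Ak4 and Ak6, so it did not separate called members from the others. Overlapping windows of Ak4 count the same site more than once, so the 8 windows are not independent.

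Other nucleotide kinases were set beside the family. Of 13 listed, 11 were in the table and 10 tested; 5 were called higher and 1 lower, with a median log2 fold change of 0.18, where 12.3% of all tested genes were higher and 9.66% lower. Nme5, a nucleoside diphosphate kinase family protein of motile cilia, rose from 3.02 and 2.61 CPM to 30.9 and 26.9 CPM, a log2 fold change of 3.36 (SE 0.12, edgeR adjusted p = 3.21e-13). Nme7, a family member found at centrosomes and cilia, had a log2 fold change of 0.51 (edgeR adjusted p = 1.68e-05). Smaller rises were those of Cmpk2 (0.43), Nme6 (0.25) and Nme1 (0.18), and Dtymk, the thymidylate kinase of DNA synthesis, fell by 0.23.

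Among proteins that associate with Ak8 or its neighbours in the axoneme, all 3 listed were called higher, where 12.3% of all tested genes were. This list was chosen with earlier results of these data known. Cfap45, an AMP-binding protein of ciliary doublets, rose from 2.18 and 2.06 CPM to 21.0 and 23.5 CPM, a log2 fold change of 3.39 (edgeR adjusted p = 9.14e-13). Cfap52 went from 1 and 7 counts to 1116 and 771, and Enkur from 83 and 91 to 2251 and 1642 counts. Their log2 fold changes were 7.84 and 4.49 (edgeR adjusted p = 7.98e-15 and 2.77e-17). Cfap52, like Ak9, passed the low-count filter only through the Foxn3KO-labelled libraries.

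Genes of general adenylate metabolism were called at a share near that of all genes. Of 12 tested genes of adenosine, AMP and adenine nucleotide handling, 2 were called, both higher, against 21.9% of all genes: Adsl, which makes AMP from adenylosuccinate (0.22), and Slc25a5, a mitochondrial ADP/ATP carrier (0.17). The median over that list was 0.03. Of 6 tested subunits of the AMP-activated protein kinase, only Prkaa1, a catalytic subunit, was called (0.21). Of the 2 creatine kinases tested, Ckb, the brain-type enzyme, was called, rising from 2071 ± 79.8 to 2408 ± 57.3 CPM (SD, n = 2 each) by a log2 step of 0.22 (edgeR adjusted p = 0.00112).

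Ak4 belongs to the genes induced by low oxygen, and 14 such genes including it were tested. Of these, 7 were called lower and 2 higher, where 9.66% of all tested genes were lower and 12.3% higher. Their median log2 fold change of -0.12 depended on the wild-type library used: leaving out wild-type replicate 1 gave -0.031 and leaving out replicate 2 gave -0.23. Bnip3, a mitophagy receptor, Vegfa, the endothelial growth factor, and Slc2a1, the glucose transporter, had log2 fold changes of -0.52, -0.36 and -0.30, with edgeR adjusted p-values of 4.53e-05, 4.59e-05 and 3.43e-05. Egln3 (-0.48), Egln1 (-0.19) and Pdk1 (-0.24) were also called lower. Ak4 itself stayed among the 5 that were not called.

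The 4-library profiles closest to the cilia-linked members were found among all tested genes. The distance was Euclidean on log2(CPM + 1) after subtracting each gene's mean over the 4 libraries. For Ak7 they were Enkur (distance 0.126), Lrrc10b (0.128) and Dnai3 (0.138), with log2 fold changes of 4.49, 4.76 and 5.10. For Ak8 they were Cdh1 (0.102), the epithelial cadherin, Gask1b (0.237) and Spmip6 (0.246), with 2.23, 3.84 and 2.63. For Ak9 they were Lrriq1 (0.067), Aldh1a7 (0.132) and Ubxn11 (0.169), with 3.08, 3.70 and 2.65. Over 4 libraries these are descriptions, in which the genotype step makes up most of each profile. The added 1 exceeds the wild-type CPM of Ak7 and Ak9 and shrinks their steps on this scale. A near gene can therefore have a much smaller log2 fold change, as for Ak9.

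Markers of other tissues were read beside these rises. Of all tested genes, 12.3% were called higher and 9.66% lower. Of 16 lens markers, 12 were in the table and 10 of 11 tested were called higher, with summed levels of 9.56 and 80.1 CPM in the wild-type-labelled retinas and 363.8 and 365.9 CPM in the Foxn3KO-labelled retinas. None of the 12 was at 0 in any library. Lens markers differed widely between the wild-type libraries, where Ak7 was at 0.927 and 0.810 CPM and Ak1 at 26.9 and 26.5 CPM, and Ak8 and Ak9 were lower in the library with fewer lens transcripts. Choroid plexus markers, 10 of 12 in the table, summed to 502.3 to 514.4 CPM in all 4 libraries, mostly from Otx2, which retina expresses, with 2 called higher (Folr1 and Aqp1) and 2 lower (Ttr and Clic6). Of 10 airway markers only Krt8 was in the table, at 0.357 to 1.05 CPM. Ependymal markers, 6 of 9 in the table, summed to 2116 and 2105 CPM against 2247 and 2269 CPM. Most of this came from Nnat (1179 to 1201 CPM) and Cd24a (512.2 to 554.1 CPM), neither of them called. Vim and Sox9, which retinal progenitors also express, were called higher and Gfap lower, and S100b (1.27 to 2.06 CPM) was not called. Pigment epithelium markers, 8 of 9 in the table, summed to 87.6 and 115.1 CPM against 72.8 and 73.8 CPM, with 3 of 8 called lower and 0 higher. The part of any of these tissues in the rises of Ak1, Ak7, Ak8 and Ak9 was not tested.

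In the authors' deposited table, Ak7, Ak8, Ak9 and Ak1 had log2 fold changes of 5.26, 2.36, 4.71 and 0.534 with adjusted p-values of 2.8e-96, 1.36e-10, 3.2e-06 and 5.5e-07. The authors' deposited table gives the other 4 members adjusted p-values of 0.758 to 0.972. DESeq2 run here gave Ak7, Ak8, Ak9 and Ak1 the same adjusted p-values as deposited. Its log2 fold changes were larger, at 5.283, 2.465, 5.101 and 0.559. The deposited fold changes may therefore be an unlike measure, and the reason for the difference was not tested.

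**Figure D4:**
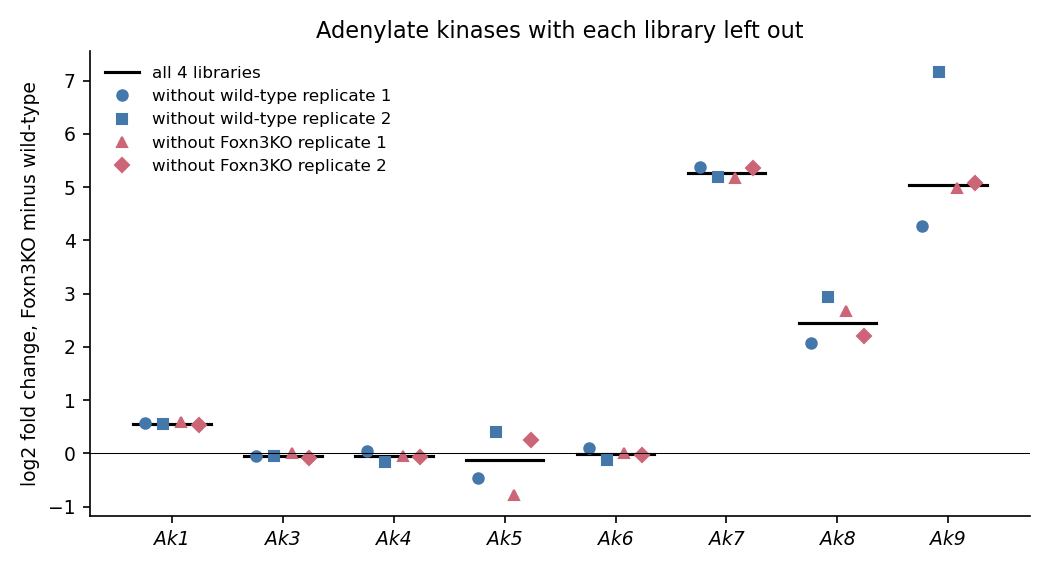
Log2 fold change (Foxn3KO minus wild-type) of each adenylate kinase with all 4 libraries (line) and with each library left out (symbols). Ak7 stays between 5.17 and 5.38 and Ak1 between 0.54 and 0.58, Ak9 ranges from 4.27 to 7.16, and Ak5 lies on both sides of 0.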

How the data were processed

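Retinal total RNA (500 ng per library) from 2 wild-type and 2 Foxn3KO embryos was sequenced with a strand-specific kit and adaptors carrying molecular identifiers, per the labels' protocols. The authors deposited 1 table with whole-number counts per gene, FPKM, a mean signal per gene, log2 fold changes, and p-values with adjusted values. Per the submitters' processing notes, mm39 and DESeq2 were used; the aligner, the counter, its strand setting and the use of the identifiers are not given in the sources used here. The deposited FPKM equalled counts over a gene length and 1 constant per library, to a relative deviation of at most 1.21e-07. Every gene in the table had at least 16 counts in sum over the libraries; genes below that are not analysed here.

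From the counts, 18471 genes were read after dropping 1 repeated identifier. filterByExpr left 17300, which were scaled with TMM. The test was the quasi-likelihood F test of edgeR 4.0.16 under R 4.3.3 (edgeR 4 fit, genotype as the only term, two-sided, Benjamini-Hochberg adjustment over all tested genes, threshold 0.05). The procedure was tested on simulated data. SEs were derived as the size of the fold change over the root of F. A limit of 3 counts equals 0.103 to 0.134 CPM, for counting error only.

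The members, lists and the rule for naming genes were chosen with earlier results of these data known. Named were all members, Foxn3, Xist, Ddx3y, Taf9, up to 6 called genes with the smallest p per pathway list, and the 3 nearest profiles of Ak7, Ak8 and Ak9; Cdc37l1 and the marker genes were named after their values were seen. A gene that the rule selects is not reported here. Overlaps came from GENCODE M21 (GRCm38), which is not the authors' build, so coordinates are given only for the RefSeq windows, on GRCm38.p6. Alternatives were RLE and total count scaling, no filter, DESeq2 1.42.0, limma-voom (limma 3.58.1), a minimum of 10 counts in every library, the earlier edgeR fit, an adjusted p under 0.1, a replicate block, length-scaled CPM for the shares, and leaving out each library. Figures used matplotlib 3.10.9.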

Additional observations from a re-analysis of the deposited data

How the results depend on the processing

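The calls of Ak1, Ak7, Ak8 and Ak9 and the lack of a call for the other 4 members held under every alternative in which they were tested; with at least 10 counts in every library Ak9 was not tested, which left 3 called members in place of 4. Outside the fits with a library left out, log2 fold changes ranged from 5.25 to 5.28 for Ak7, 2.42 to 2.47 for Ak8, 5.02 to 5.48 for Ak9 and 0.54 to 0.56 for Ak1, and their largest adjusted p-values were 2.70e-10, 2.09e-05, 3.20e-06 and 1.35e-05.

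With a library left out, 1 group has a single library, assumed to vary like the other group. The values then ranged from 5.17 to 5.38 for Ak7, 2.08 to 2.94 for Ak8, 4.27 to 7.16 for Ak9 and 0.538 to 0.581 for Ak1. Values near 0 changed sign: Ak4 ranged from -0.163 to 0.053, Ak5 from -0.774 to 0.402 and Ak6 from -0.123 to 0.102; none was called. The share of Ak7, Ak8 and Ak9 ranged from 1.05% to 1.69% for wild-type and 16.3% to 16.9% for Foxn3KO, and length-scaled CPM gave the same shares by construction.

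Over all genes, 3795 calls became 2437 with DESeq2 and 2323 to 5067 with a library left out, the low values without either Foxn3KO library (2328 without replicate 1 and 2323 without replicate 2); the cause was not tested. Scaling by total counts put 48.2% of the calls on the higher side in place of 55.9%, and shifted the median log2 fold change from -0.0047 to -0.0251. The replicate numbers were not taken to pair the samples. The replicate differences of the groups had a correlation of 0.0153 over 17300 genes. This rests on 1 difference per group, so it cannot exclude a pairing. The replicate block gave 4222 calls, which include 3792 of the 3795, and Ak7, Ak8, Ak9 and Ak1 had log2 fold changes of 5.27, 2.47, 5.04 and 0.56, each still called. The lens marker median of 1.89 was 3.94 with limma-voom and 5.40 without wild-type replicate 2. The fold of Ak9 rests on 10 wild-type counts and the value of Ak5 on 12 to 32 counts per library.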
